A study of Mus musculus with 6 samples.

Results

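The Xlr genes are a multi-copy family on the mouse X chromosome, and 10 of the 22274 genes in the deposited table belong to it: Xlr, Xlr3a, Xlr3b, Xlr3c, Xlr4a, Xlr4b, Xlr4c, Xlr5a, Xlr5b and Xlr5c. They were found by Ensembl ID. The family was selected on the lower counts of its members in the knockout libraries, seen in an earlier look at these data. Every genotype difference of a member below is therefore a description, printed without a p-value. Where members are said to pass a threshold or to be called, this describes the fit and lends the differences no support. The counts come from messenger RNA of whole testes labelled day 9, with 3 knockout and 3 control libraries. The knockout libraries came from mice in which floxed Dcaf2 alleles (Dcaf2fl/fl) were deleted by Stra8-Cre, and the controls are labelled only as control, with no alleles given. Stra8-Cre acts in spermatogonia, so the somatic cells of a knockout testis are outside its reach and still carry Dcaf2. DCAF2 is the substrate receptor of a CRL4 ubiquitin ligase, and the study asked whether it is needed for spermatogenesis.

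Xlr stands for X-linked lymphocyte regulated, after the lymphoid cells in which the first member was described. The proteins share a conserved domain with SYCP3, a component of the axes of meiotic chromosomes, and the relatives Slx and Sly are spermatid genes on the X and Y chromosomes. In mouse brain Xlr3b is imprinted and read from the maternal X. The Xlr3, Xlr4 and Xlr5 copies stand interleaved in 1 stretch of the X chromosome, and Xlr stands apart from them. Copies of a subfamily are near-identical, so reads can be shared between them, and the split between copies is less certain than the sum of a subfamily.

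The libraries held 15407007 to 17564942 counts in the knockouts and 16097362 to 18372964 in the controls, and 14424 genes were tested. The labels do not say whether replicates came from separate animals, and p-values then reflect only how much these samples vary, which may be technical. The targeted gene, listed as Dtl, was at 41.7, 43.8 and 51.5 CPM (counts scaled to the effective size of each library) in the knockouts and at 42.6, 50.3 and 77.4 CPM in the controls. These ranges overlapped, and the log2 fold change was -0.31 (SE 0.20, edgeR adjusted p = 0.281), so in whole testis the transcript did not separate the groups. Without control library 1 it was -0.51, with an edgeR adjusted p of 0.0321, and it turned to 1.15 with pan-germ-cell scaling. The label testis was borne out by Sertoli cell and germ cell markers in every library. The 18 pan-germ-cell markers, such as Ddx4, summed to 680 to 845 CPM in the knockouts and 1655 to 2346 CPM in the controls. Of these, 18 of 18 were called lower in the knockouts, against 13.9% of all tested genes. Like the other lists, this one was chosen with earlier results of these data known. The 8 Sertoli cell markers summed to 1876 to 1979 CPM in the knockouts and 1186 to 1473 CPM in the controls. Control library 1 stood apart: its pan-germ-cell sum was the lowest of the controls, and its Leydig cell sum was 827 CPM, against 410 and 366 CPM in the other controls, near the 884 to 917 CPM of the knockouts. Macrophage markers summed to 103 to 119 CPM in the knockouts and 73.3 to 82.9 CPM in the controls. The part these cell types play in the Xlr differences was not tested.

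The start regions of the copies are shown because they let a reader see how alike the copies are within a subfamily. The sequences are RefSeq's (GRCm38.p6), read 5′ to 3′ on the gene's strand. For the 7 members outside the Xlr5 subfamily, the 85 bases around a CCAAT are shown, with 60 bases before it and 20 after it. Capitals mark CCAAT and, before it, GCATGNGCA, which resembles the palindrome-like site of the factor NRF1 and was picked out after the sequences had been read.
Xlr: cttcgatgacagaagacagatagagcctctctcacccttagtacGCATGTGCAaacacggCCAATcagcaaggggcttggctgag
Xlr3a: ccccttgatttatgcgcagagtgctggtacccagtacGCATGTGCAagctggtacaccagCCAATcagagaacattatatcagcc
Xlr3b: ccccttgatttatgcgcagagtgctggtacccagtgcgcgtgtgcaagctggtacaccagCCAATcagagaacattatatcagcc
Xlr3c: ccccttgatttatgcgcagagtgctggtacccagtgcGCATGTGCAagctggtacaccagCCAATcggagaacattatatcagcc
Xlr4a: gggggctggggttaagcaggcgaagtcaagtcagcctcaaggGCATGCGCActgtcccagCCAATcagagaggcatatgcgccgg
Xlr4b: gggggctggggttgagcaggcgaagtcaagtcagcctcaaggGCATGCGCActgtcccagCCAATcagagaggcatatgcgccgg
Xlr4c: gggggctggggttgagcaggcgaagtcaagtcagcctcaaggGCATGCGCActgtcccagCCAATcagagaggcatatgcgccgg
These windows lie at chrX:53797739-53797823 (minus strand) for Xlr, chrX:73097048-73097132 (minus strand) for Xlr3a, chrX:73192098-73192182 (plus strand) for Xlr3b and chrX:73265407-73265491 (minus strand) for Xlr3c. The Xlr4 windows lie at chrX:73082527-73082611 (minus strand) for Xlr4a, chrX:73214236-73214320 (plus strand) for Xlr4b and chrX:73243120-73243204 (minus strand) for Xlr4c. Between GCATGNGCA and CCAAT there were 7 bases in Xlr, 14 in Xlr3a and Xlr3c and 9 in each Xlr4 copy. Xlr3b has no match to GCATGNGCA in its window, and otherwise its window closely follows those of Xlr3a and Xlr3c.

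The Xlr5 start regions look different from these. The 300 bases of Xlr5a at chrX:73117653-73117952 (minus strand) are shown because they are shared with Xlr5b, with CCAAT in capitals.
Xlr5a: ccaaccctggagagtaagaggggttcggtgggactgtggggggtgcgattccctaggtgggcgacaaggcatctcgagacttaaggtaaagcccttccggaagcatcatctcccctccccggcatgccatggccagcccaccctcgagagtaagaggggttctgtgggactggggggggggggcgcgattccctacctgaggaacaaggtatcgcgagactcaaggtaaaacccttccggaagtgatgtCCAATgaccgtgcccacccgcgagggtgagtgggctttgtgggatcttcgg
This region was identical to that of Xlr5b over 255 aligned bases, in a local alignment. The regions of Xlr5a and Xlr5b hold 16 CpG sites each, while those of the other members hold 1 to 8 and the median promoter in the table holds 7. The annotated start of Xlr5c lies elsewhere, and its region aligned to that of Xlr5a over only 46 bases. Within the Xlr4 subfamily the start regions were 98.1% to 98.6% identical over 270 to 293 locally aligned columns. Within Xlr3 they were 87.8% to 94.3% identical over 236 to 280 columns. Annotated starts are offset between copies: relative to the start, the CCAAT of the windows began at 23 in Xlr3a, -21 in Xlr3b and -41 in Xlr3c.

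The promoter windows of 300 bases (250 before to 50 after the annotated start) of 32851 mouse genes gave the background for each pattern, searched on both strands. Chromosome 18 was left out of this background and of the median CpG count above. CCAAT was in 9 of 10 member windows and in 37.4% of all windows. GCATGNGCA was in 6 of 10 member windows and in 2.47% of all, and both patterns stood together in 6 of 10 and in 0.892%. The copies descend from each other and share sequence, so their matches are not independent. The E-box CACGTG was in 0 of 10 member windows against 7.15% of all, and TATAAA was in 0 of 10 against 13.6%. GCGGGAA, an E2F-type pattern, was in Xlr alone among the members (4.60% of all), and CNCCTCAG, a STRA8-type pattern, was in Xlr4a and Xlr4b (7.94% of all). None of these matches is shown to be bound.

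The summed Xlr counts were lower in the knockouts. The family sum was 53.9, 54.5 and 61.3 CPM in the knockout libraries, against 138, 149 and 160 CPM in the control libraries. Every knockout library lay below every control library, and the means were 56.6 ± 4.10 CPM in the knockouts and 149 ± 10.8 CPM in the controls (SD, n = 3 each). The sum differed by -1.40 on the log2 scale (SE 0.101, 95% interval -1.63 to -1.17), which is 2.64-fold higher in the controls. Among the tested genes 2.95% had a lower log2 fold change than this sum. With the libraries scaled instead by the pan-germ-cell genes, the same difference was 0.04 (SE 0.191), with the sign turned round. That scaling moves the median of all genes to 1.46, against 0.03 under the main scaling, and it sets the Xlr counts beside the germ cell RNA of each library. In bulk testis, fewer cells of a type and less RNA per cell cannot be told apart.

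All 10 members had lower values in every knockout library than in any control library under the main scaling, and all 10 passed edgeR's threshold, an adjusted p under 0.05. Since this contrast chose the members, nothing is read from these counts. In the background, 13.9% of tested genes were called lower in the knockout and 22.1% had every knockout library below every control library, while 11.1% were called higher. The median log2 fold change of the 10 members was -1.47, against 0.03 over all tested genes. Under the pan-germ-cell scaling 0 of 10 were called, and the difference turned positive for Xlr3b, Xlr3c, Xlr5b and Xlr5c.

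**Figure D1:**
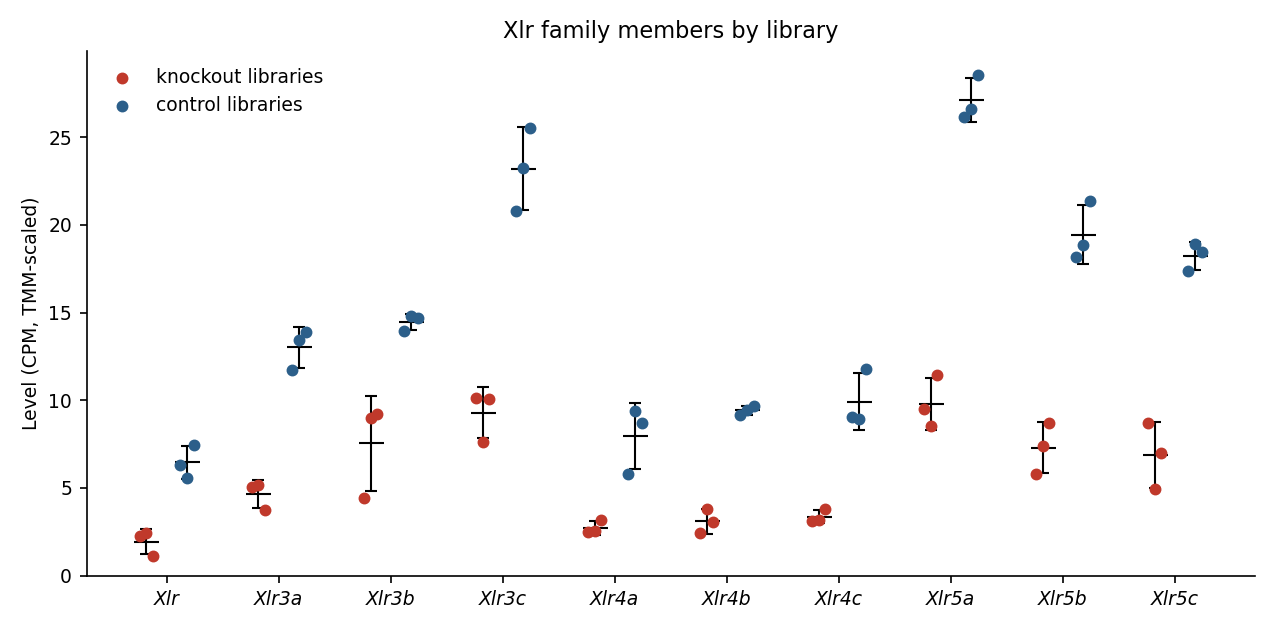
Level of each Xlr member in CPM (vertical axis) in the knockout libraries (red) and the control libraries (blue), with 1 point per library and the mean and SD of 3 libraries as black bars. Xlr5a and Xlr3c have the highest control values, the groups overlap for none of the 10 members, and Xlr3b has the most spread knockout values (4.42 to 9.23 CPM); with pan-germ-cell scaling the genotype difference turns positive for Xlr3b, Xlr3c, Xlr5b and Xlr5c.

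Xlr itself, the founding member, had the lowest level of the family. It was at 2.28, 2.41 and 1.13 CPM in the knockouts and at 6.33, 5.58 and 7.45 CPM in the controls. Those values rest on only 35, 41 and 17 counts in the knockouts and 120, 100 and 124 in the controls. The groups did not overlap, and knockout library 3 was the lowest of all. The log2 fold change was -1.72 (SE 0.286), the most negative of the members, and it was -0.27 (SE 0.356) with pan-germ-cell scaling.

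The Xlr3 subfamily includes Xlr3b, the copy imprinted in brain. Its summed level was 19.6, 21.8 and 23.0 CPM in the knockouts and 46.4, 51.5 and 54.1 CPM in the controls. The groups were well apart, and the log2 difference was -1.24 (SE 0.107, 95% interval -1.48 to -0.996). With pan-germ-cell scaling it turned to 0.21 (SE 0.212). Xlr3a was at 5.07, 5.17 and 3.72 CPM in the knockouts and at 11.7, 13.4 and 13.9 CPM in the controls. Xlr3c, the most abundant copy, was at 10.1, 7.63 and 10.1 CPM in the knockouts and at 20.8, 23.2 and 25.5 CPM in the controls. For both copies each knockout library was below every control library, and the log2 fold changes were -1.48 (SE 0.177) for Xlr3a and -1.32 (SE 0.153) for Xlr3c, which turned to 0.12 with pan-germ-cell scaling. Xlr3b was at 4.42, 8.98 and 9.23 CPM in the knockouts and at 13.9, 14.8 and 14.7 CPM in the controls. Its control values were nearly equal, while knockout library 1 was well under the other knockouts. The log2 fold change of Xlr3b was -0.94 (SE 0.245), the least negative of the members, and it turned to 0.50 (SE 0.288) with pan-germ-cell scaling. Leaving out each library in turn moved it between -1.10 and -0.66, with -0.66 found without knockout library 1, a span like that of Xlr, which ran from -1.91 to -1.46.

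The Xlr4 copies had the most negative summed difference of the subfamilies, though the intervals of the subfamilies overlap. The summed level was 7.998, 9.51 and 10.03 CPM in the knockouts and 24.0, 27.7 and 30.2 CPM in the controls. The groups did not overlap, and the log2 difference was -1.57 (SE 0.142, 95% interval -1.89 to -1.25), against -0.12 (SE 0.232) with pan-germ-cell scaling. Xlr4a was at 2.47, 2.52 and 3.19 CPM in the knockouts and at 5.80, 9.37 and 8.71 CPM in the controls. Xlr4b was at 2.41, 3.82 and 3.06 CPM in the knockouts and at 9.18, 9.42 and 9.68 CPM in the controls. Control library 1 was low for Xlr4a but not for Xlr4b, and no knockout library reached a control library for either copy. Xlr4c was at 3.12, 3.17 and 3.79 CPM in the knockouts and at 9.02, 8.92 and 11.8 CPM in the controls. The 3 copies had log2 fold changes of -1.54 (SE 0.240) for Xlr4a, -1.60 (SE 0.201) for Xlr4b and -1.56 (SE 0.193) for Xlr4c, closer to each other than their errors.

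The Xlr5 copies together had the most counts of the subfamilies in 5 of 6 libraries, the exception being knockout library 2, where Xlr3 had more. Their summed level was 24.0, 20.8 and 27.1 CPM in the knockouts and 61.7, 64.3 and 68.3 CPM in the controls. The groups did not overlap, and the log2 difference was -1.43 (SE 0.114, 95% interval -1.69 to -1.18), against -0.01 (SE 0.206) with pan-germ-cell scaling. Xlr5a was at 9.49, 8.51 and 11.4 CPM in the knockouts and at 26.2, 26.6 and 28.5 CPM in the controls. Xlr5b was at 5.79, 7.40 and 8.70 CPM in the knockouts and at 18.2, 18.8 and 21.3 CPM in the controls. Knockout library 3 was the highest knockout for both of these copies, yet stayed under every control library. Xlr5c was at 8.71, 4.93 and 6.97 CPM in the knockouts and at 17.4, 18.9 and 18.5 CPM in the controls. Among the Xlr5 copies the log2 fold changes were -1.47 (SE 0.137) for Xlr5a, -1.41 (SE 0.168) for Xlr5b and -1.41 (SE 0.196) for Xlr5c, and with pan-germ-cell scaling those of Xlr5b and Xlr5c turned to 0.02 each.

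**Figure D2:**
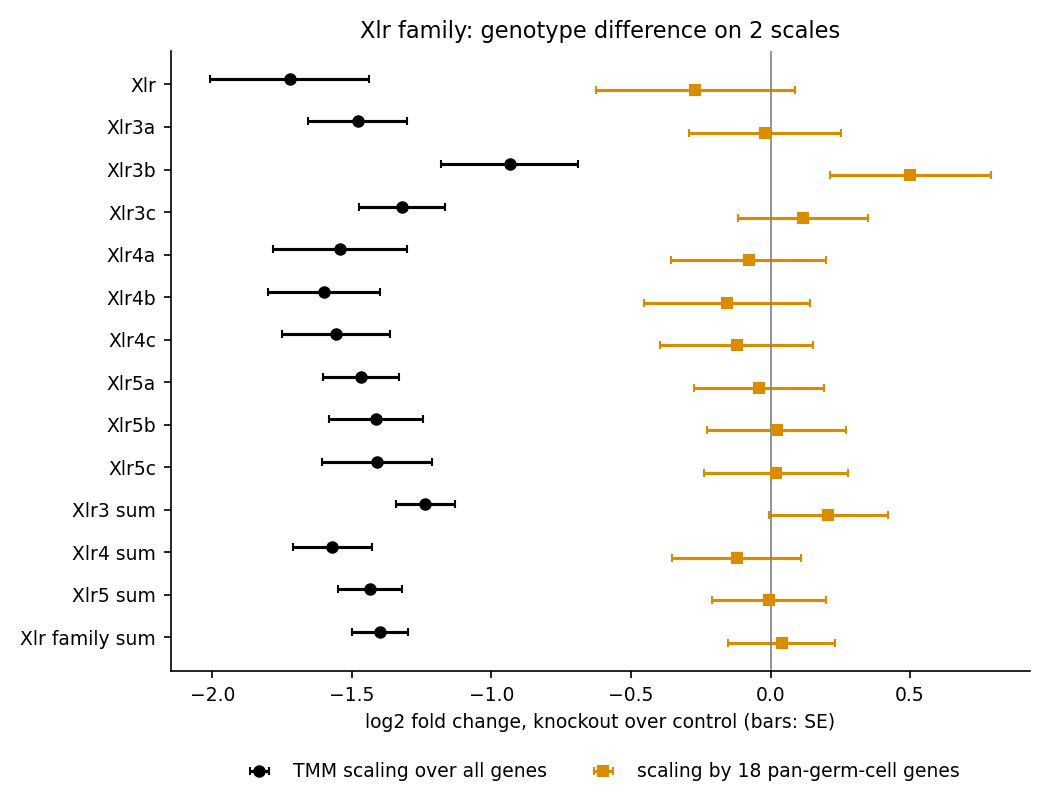
Log2 fold change of each member and sum, knockout over control (horizontal axis, bars are SE), under TMM scaling over all genes (black circles) and under scaling by the 18 pan-germ-cell genes (orange squares). The TMM values run from -1.72 for Xlr to -0.94 for Xlr3b, and with pan-germ-cell scaling all lie between -0.27 and 0.50, with Xlr3b, Xlr3c, Xlr5b, Xlr5c, the Xlr3 sum and the family sum above 0.

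By group means per transcript length, the Xlr5 copies came first and Xlr last in both groups, though single libraries overlapped across this order. FPKM values, which the authors scaled by transcript length and sequencing depth, allow this comparison. In the knockouts the means of the Xlr5 copies were 7.24 to 7.30 FPKM, with overlapping libraries. In knockout library 1, Xlr5b at 5.55 FPKM was below Xlr3c at 6.30 FPKM. Xlr3c at 5.73 ± 0.910 and Xlr3b at 4.71 ± 1.66 FPKM came next in the knockouts (SD, n = 3), and they overlapped each other. The other copies had knockout means of 2.57 to 3.12 FPKM, and Xlr was last at 1.87 ± 0.659 FPKM, overlapping Xlr4b and Xlr4a. In the controls Xlr5a was at 20.8 ± 1.81, Xlr5b at 19.5 ± 2.76 and Xlr5c at 17.7 ± 0.589 FPKM, and these neighbours overlapped between libraries. Xlr3c followed at 14.97 ± 1.58 FPKM in the controls, with no library reaching the lowest Xlr5c library. Next came Xlr4c, Xlr3b, Xlr4a, Xlr4b and Xlr3a, with control means of 8.37 to 9.73 FPKM and overlapping libraries. Xlr was last at 6.51 ± 1.05 FPKM, with no library reaching those of Xlr3a, but Xlr4a at 5.29 FPKM in control library 1 was below every Xlr control library. For scale, the family together was at 45.5 ± 3.36 FPKM in the knockouts and 124 ± 11.5 FPKM in the controls. The germ cell helicase gene Ddx4 was at 25.7 ± 3.38 FPKM in the knockouts and 67.2 ± 7.30 FPKM in the controls.

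The Xlr3 and Xlr5 copies took steady shares of their subfamily's counts in the controls and more variable ones in the knockouts, where counts were fewer. The Xlr4 shares varied in both groups. Xlr3b held 22.5%, 41.2% and 40.1% of Xlr3 counts in the knockouts and 30%, 28.7% and 27.1% in the controls. These shares rest on 302 to 371 Xlr3 counts in the knockouts and 880 to 923 in the controls. The Xlr5 shares rest on 355 to 408 counts in the knockouts and 1137 to 1169 in the controls. The 95% Wilson interval of the Xlr3b share was 18.2% to 27.6% in knockout library 1 and 36.4% to 46.3% in knockout library 2, covering counting error only. These libraries are the extremes of the group, and the intervals leave out the differences between samples and the assignment of reads shared between copies. Xlr3c mirrored this with 51.7%, 35.0% and 43.8% of Xlr3 counts in the knockouts and 44.8%, 45.2% and 47.2% in the controls. Xlr5c held 36.3%, 23.7% and 25.7% of Xlr5 counts in the knockouts and 28.1%, 29.4% and 27.0% in the controls, while Xlr5a stayed at 39.6% to 42.2% in the knockouts and 41.3% to 42.4% in the controls. Among the Xlr4 copies, Xlr4a ran from 26.5% to 31.8% in the knockouts and from 24.2% to 33.8% in the controls. Xlr4b ran from 30.1% to 40.1% in the knockouts and from 32.1% to 38.2% in the controls, and Xlr4c from 33.3% to 39.0% in the knockouts and from 32.2% to 39.0% in the controls.

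**Figure D3:**
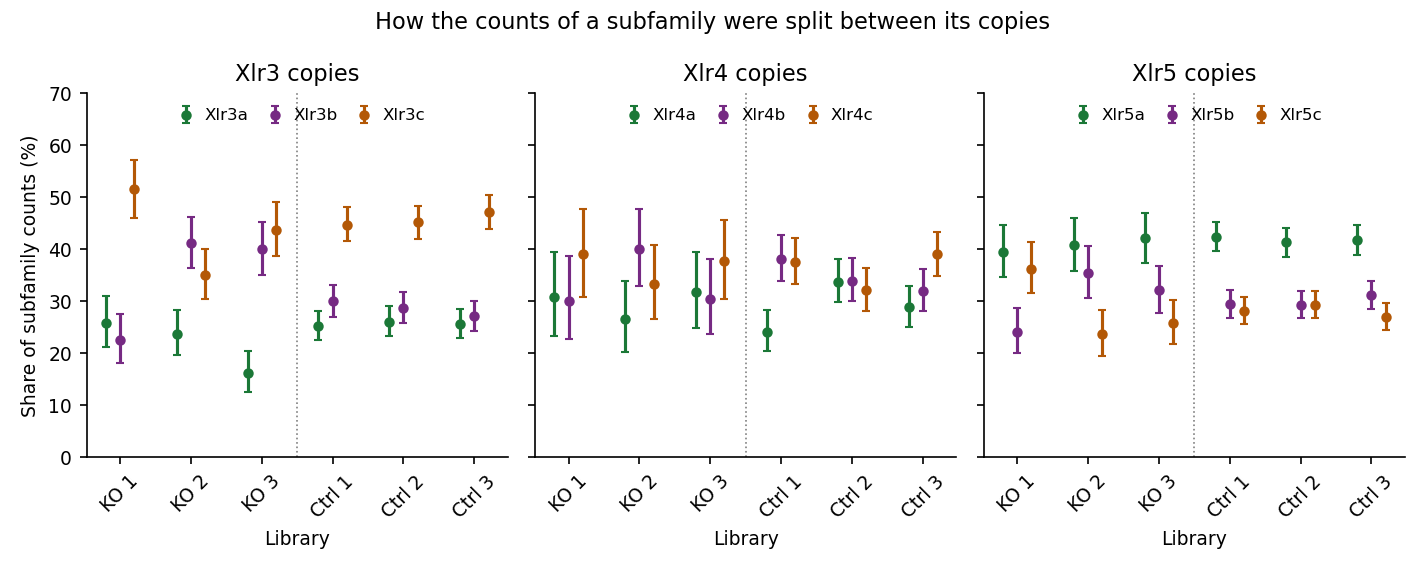
Share of the subfamily's counts held by each copy (vertical axis, percent) in every library, knockouts (KO) left of the dotted line and controls (Ctrl) right of it, with 95% Wilson intervals as bars. Xlr3b runs from 22.5% to 41.2% in the knockouts and from 27.1% to 30% in the controls.

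How far the copies can be told apart differs by subfamily. Of the stretches of 100 bases in the annotated transcripts (GENCODE M21) of each gene, 93.3% in Xlr occur in no other gene. The share is 75.6% in Xlr3a, 64.9% in Xlr3b and 53.3% in Xlr3c, and 40.1% to 62.0% in the Xlr4 copies. In the Xlr5 copies it is 30.9% for Xlr5a, 18.7% for Xlr5b and 33.3% for Xlr5c. For Xlr, the other 6.69% are shared with 3830403N18Rik and Gm14599, and none with another member. In the Xlr3, Xlr4 and Xlr5 copies the rest are shared mainly within a subfamily. Part is shared with the pseudogene transcripts Xlr3d-ps, Xlr4d-ps, Xlr4e-ps, Xlr5d-ps and Xlr5e-ps. Between subfamilies, Xlr3b shares 1.76% of its stretches with Xlr4a and Xlr4c. The part this sharing plays in the split between copies was not tested.

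The Xlr3 copies together held a larger share of family counts in the knockouts. They were 36.4%, 39.9% and 37.6% of family counts in the knockouts and 33.5%, 34.5% and 33.8% in the controls. Every knockout share was above every control share, with 3 libraries per group and no test of the shares. The copies were not alike in this. Under the main scaling Xlr3b was at -0.94, Xlr3c at -1.32 and Xlr3a at -1.48, against -1.40 for the family. The Xlr5 copies were 44.5%, 38.2% and 44.2% in the knockouts and 44.6%, 43.2% and 42.7% in the controls, which overlap. The Xlr4 copies were 14.8%, 17.4% and 16.4% in the knockouts and 17.3%, 18.6% and 18.9% in the controls, overlapping by knockout library 2 and control library 1 alone. Xlr itself was 4.22%, 4.41% and 1.84% in the knockouts and 4.57%, 3.74% and 4.66% in the controls, which also overlap. These shares sum to the whole, so a higher share of 1 subfamily goes with lower shares of others, and they do not depend on the scaling of the libraries.

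Set against germ cell markers, the family's level depended on the marker list. Per 1000 counts of the pan-germ-cell list the libraries held 71.9, 80.2 and 72.5 Xlr family counts in the knockouts and 83.6, 63.6 and 71.2 in the controls. These ratios overlapped. Without control library 1, the remaining control ratios of 63.6 and 71.2 were both below every knockout ratio, and the pan-germ-cell-scaled family difference was 0.15. Per 1000 counts of undifferentiated spermatogonia markers, which include Zbtb16, there were 177, 212 and 203 family counts in the knockouts and 379, 300.4 and 312 in the controls. Every knockout ratio was below every control ratio here. The 12 genes of this list did not move as 1 stage, since 5 were lower in the knockouts, 2 were higher and 5 were not called. Sox3, a transcription factor of spermatogonia, was at -2.45 (log2 fold change, SE 0.140, edgeR adjusted p = 0.000104), while Lhx1, a transcription factor of spermatogonial stem cells, was at 1.05 (SE 0.241, edgeR adjusted p = 0.0149). With pan-germ-cell scaling Sox3 was at -1.003 and Lhx1 at 2.46, and both were chosen here after their values were seen. The other gene called higher was Etv5 at 0.33 (log2 fold change, SE 0.0937, edgeR adjusted p = 0.0321), or 1.77 with pan-germ-cell scaling. The ratio leans on the most abundant genes of the list. By mean CPM these were Etv5 (63.7) and Ret (48.3) in the knockouts and Lin28a (94.3) and Sall4 (74.0) in the controls. Whether other testis cells add to these counts was not tested. Per 1000 counts of differentiating spermatogonia markers, such as Kit and Stra8, the order was the other way, with 386, 432 and 369 in the knockouts and 362, 294 and 325 in the controls. This held for part of the list only. Dnmt3b (log2 fold change -1.14), Kit (-1.38) and Sohlh2 (-1.40) fell no further than the family. Ddx25 (-1.98), Sohlh1 (-2.08), Stra8 (-2.35) and Dmrtb1 (-4.51) fell further. With pan-germ-cell scaling Dnmt3b, Kit and Sohlh2 turned to 0.34, 0.11 and 0.04. Against the meiotic markers, such as Sycp3, the ratios were 287, 344 and 326 in the knockouts and 290, 197 and 227 in the controls, and they overlapped through control library 1. The family difference of -1.40 stood among those of the marker lists, whose median log2 fold changes were -0.66 for 12 undifferentiated, -1.38 for 18 pan-germ-cell, -1.78 for 10 tested meiotic and -1.98 for 7 differentiating genes.

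**Figure D4:**
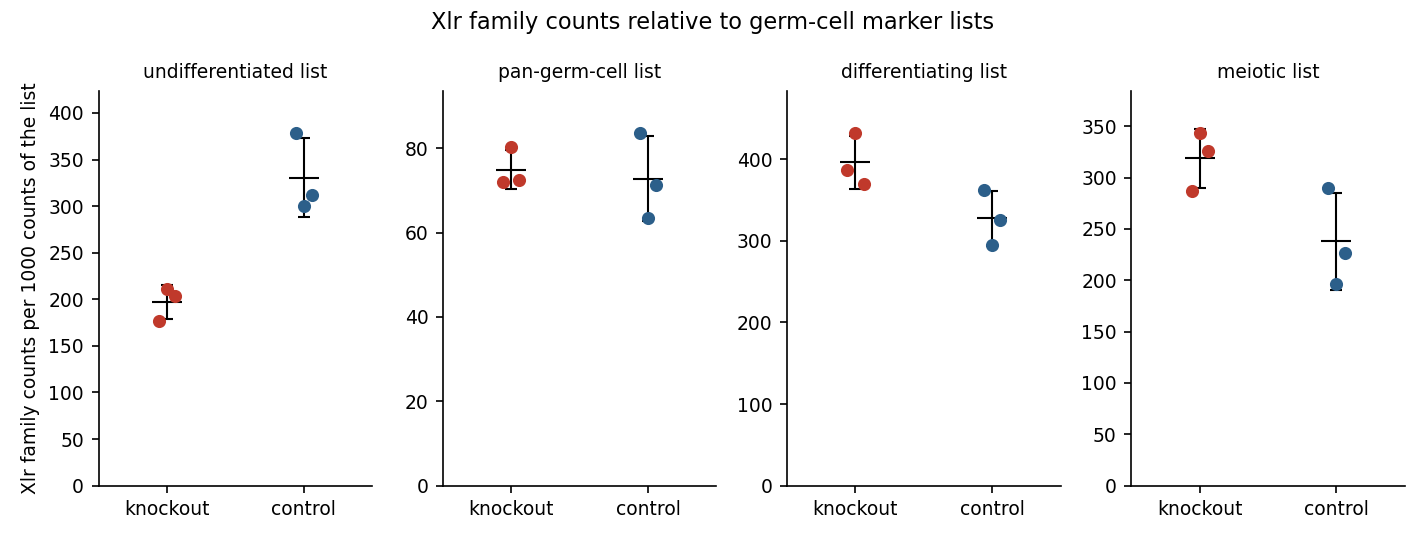
Xlr family counts per 1000 counts of 4 germ cell marker lists (vertical axes, each with its own scale starting at 0), with 1 point per library, knockouts in red left of controls in blue, and bars for mean and SD of 3 libraries. Knockout ratios are lower than control ratios for the undifferentiated list, higher for the differentiating list, and overlap with control ratios for the pan-germ-cell and meiotic lists.

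The family's name refers to lymphocytes, so lymphocyte markers were measured too. The 13 markers summed to 9.43, 11.0 and 7.84 CPM in the knockouts and 8.34, 7.97 and 8.84 CPM in the controls, which overlap. Their summed level was far under that of the whole Xlr family, but above that of Xlr itself in every library. Rag1, which starts antigen receptor rearrangement, was at 0 in all 6 libraries. Of the 4 tested markers 1 was lower in the knockouts: Cd3e, a T cell receptor subunit, with 6, 2 and 1 counts in the knockouts and 13, 19 and 18 in the controls (log2 fold change -2.26, SE 0.561, edgeR adjusted p = 0.020). That call was lost without knockout library 2, knockout library 3 or control library 3, with edgeR adjusted p-values of 0.0733 to 0.0939.

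The genes of protein relatives of the Xlr family, listed together with the partner gene Sycp2 and the similar Sycp2l, were partly silent at this age. Of 6 genes listed, Sycp3 and Sycp2 were tested and both were lower in the knockouts. Sycp3, of the meiotic chromosome axis, was at 11.1, 10.5 and 10.3 CPM in the knockouts and at 42.4, 43.8 and 54.7 CPM in the controls. The groups were far apart, and Sycp3 differed by -2.15 on the log2 scale (SE 0.129, edgeR adjusted p = 0.000104). Sycp2, the partner of Sycp3, was at 18.4, 19.6 and 22.1 CPM in the knockouts and at 39.0, 77.6 and 65.8 CPM in the controls (log2 fold change -1.60, SE 0.225, edgeR adjusted p = 0.00231). With pan-germ-cell scaling Sycp3 stayed lower at -0.70 and Sycp2 was at -0.11. The spermatid gene Slx had 0 counts in all libraries, Sly had 0 in the knockouts and 0, 2 and 1 in the controls, and Slxl1 had 0, 1 and 2 in the knockouts and 3, 1 and 6 in the controls. The multi-copy genes Slx and Sly also share reads with their copies.

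Most tested genes on a chosen list of 17 other X-linked germ cell genes were lower in the knockouts too. The list was drawn up with earlier results of these data known, so it does not stand for all such genes. Of 13 tested genes, 11 were lower in the knockouts, 0 were higher and 2 were not called, with a median log2 fold change of -1.54 that became -0.13 with pan-germ-cell scaling, under which 3 were lower and 1 was higher. Tex13b, a testis-expressed gene of the X chromosome, was at 14.9, 14.3 and 14.6 CPM in the knockouts and at 51.2, 51.0 and 54.8 CPM in the controls (log2 fold change -1.84, SE 0.0935, edgeR adjusted p = 7.0e-05). Esx1, a homeobox gene, was at 0.520, 0.411 and 0.199 CPM in the knockouts and at 12.98, 19.2 and 21.5 CPM in the controls, a log2 difference of -5.53 (SE 0.328, edgeR adjusted p = 0.000104). Esx1 therefore differed far more than any Xlr member, while Tex13b lay just beyond the family. The genes not called were Usp26 (-1.02, SE 0.365, edgeR adjusted p = 0.070) and Mageb16 (-0.33, SE 0.163, edgeR adjusted p = 0.164), and the libraries overlapped for both. Without control library 1, Usp26 was called at -1.41 (edgeR adjusted p = 0.000206). Of 5 broadly expressed X-linked genes tested, Hprt alone was called, at -0.40 (SE 0.105, edgeR adjusted p = 0.0251), and it turned to 1.02 with pan-germ-cell scaling. The Hprt call was lost in 4 of 6 fits that left out a library, with edgeR adjusted p-values of 0.0606 to 0.123 in those. Of all 576 tested X-linked genes outside the family, 101 were called lower (17.5%) and 88 higher, with a median of 0.15.

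Of the genes around the copies most were not called, as over all tested genes. Neighbours were taken by their order in RefSeq's GRCm38.p6 annotation, 5 on each side of the cluster and of Xlr, and genes between the copies were listed apart. Of 15 tested neighbours, 2 were lower, 3 were higher and 10 were not called, with a median log2 fold change of 0.23. Over all tested genes 13.9% were lower and 11.1% higher. Pnma5, separated from the cluster by Pnma3, was at 10.2, 7.10 and 10.8 CPM in the knockouts and at 25.2, 35.7 and 34.0 CPM in the controls, a log2 difference of -1.76 (SE 0.193, edgeR adjusted p = 0.000817) that was -0.31 with pan-germ-cell scaling. Ct55, near Xlr, was at -0.94 (log2 fold change, SE 0.282, edgeR adjusted p = 0.0388), which turned to 0.54 with pan-germ-cell scaling. This call was lost in the fits without any 1 of knockout libraries 1, 2 and 3 or control libraries 2 and 3 (edgeR adjusted p from 0.0530 to 0.141). The higher ones under the main scaling were Zfp275 at 0.56 (SE 0.101), Ints6l at 0.66 (SE 0.102) and Zfp449 at 0.47 (SE 0.0979), with edgeR adjusted p-values of 0.00584, 0.00329 and 0.0100. Between the copies, Gm14685 was at -1.95 (log2 fold change, SE 0.667, edgeR adjusted p = 0.060), DXBay18 -0.43 and F8a -0.08, and none was called. Gm14685, with 9, 0 and 17 counts in the knockouts and 38, 36 and 42 in the controls, passed the threshold without control library 1 (adjusted p = 0.0425 by edgeR), without knockout library 3 (0.0494) and by DESeq2 (0.0157).

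**Figure D5:**
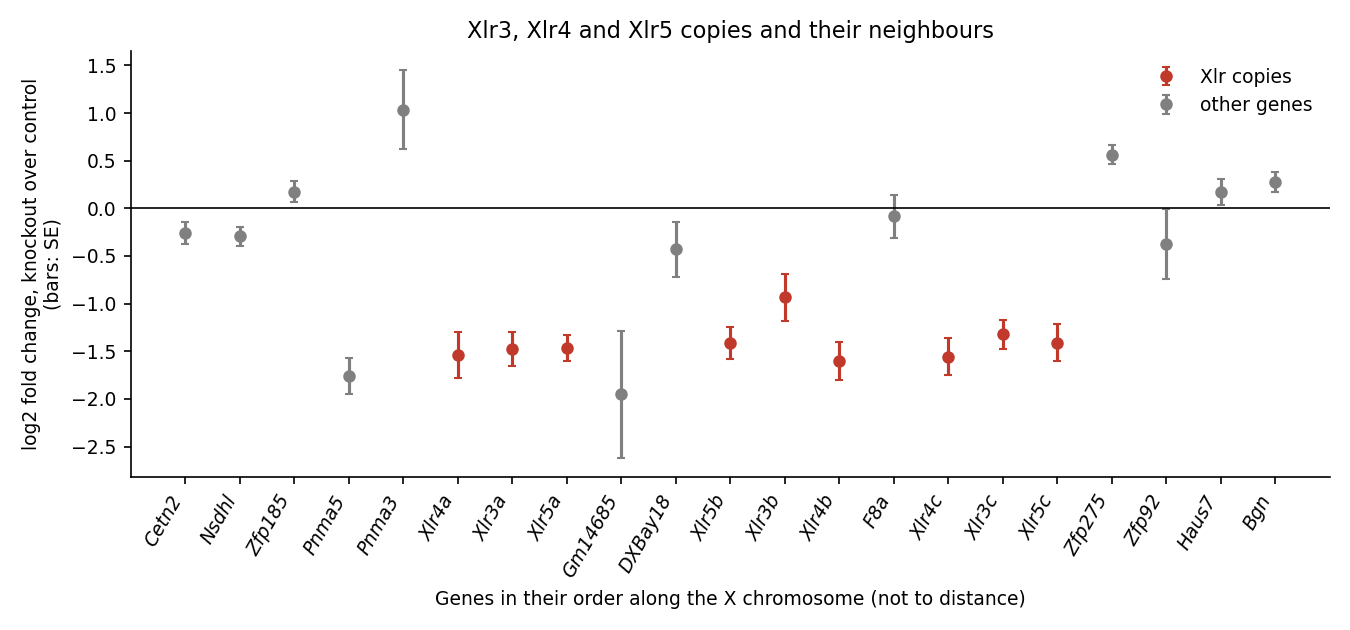
Log2 fold change, knockout over control (vertical axis, bars are SE), of the Xlr3, Xlr4 and Xlr5 copies (red) and of the tested genes beside and between them (grey), in chromosomal order and not to distance. The copies lie between -1.60 and -0.94 under the main scaling, and with pan-germ-cell scaling Xlr3b, Xlr3c, Xlr5b and Xlr5c turn positive; of the other genes only Pnma5 at -1.76 and Zfp275 at 0.56 were called.

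The genes whose profile over the 6 libraries was most like that of each sum were found among 13367 genes, by the root mean square difference of log2 CPM after centring each profile. For the Xlr5 sum these were Gpat2 (0.0340), Sohlh2 (0.0398) and Rpl10l (0.0677). Sohlh2, a transcription factor of spermatogonial differentiation, was at 18.7, 17.6 and 21.7 CPM in the knockouts and at 47.7, 51.0 and 53.8 CPM in the controls. For the Xlr3 sum the closest were Epcam (0.0507), a surface adhesion molecule used to mark spermatogonia, Hsf2bp (0.0727), a factor of meiotic recombination, and Rbm38 (0.0733). For the Xlr4 sum they were Nutm1 (0.0833), Hormad2 (0.0857), a protein of meiotic chromosome axes, and Galnt6 (0.105). Xlr, with the fewest counts, had no such close match, with Tesmin at 0.182, Otud7a at 0.200 and Rhov at 0.202. Likeness over 6 libraries in 2 groups mostly measures the genotype difference and the spread around it.

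The deposited symbols do not mark the family. A member's symbol stood on 92 rows, of which 7 were members and 85 other genes, 68 of these at 0 in every library. The Xlr5a and Xlr5b rows carried the symbol Xlr5c, and the 3 Xlr4 rows carried a dash. The 85 other rows summed to 33, 31 and 39 counts in the knockouts and 83, 80 and 76 in the controls. Most of these belonged to 3830403N18Rik, an X-linked gene listed by RefSeq with the synonym Xlrl, at 22, 18 and 31 counts in the knockouts and 68, 54 and 33 in the controls. These rows would add little to the family sums.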

How the data were processed

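Messenger RNA of whole day 9 testes was sequenced in 3 knockout and 3 control libraries. The authors deposited 1 table that holds a count and an FPKM for every gene in each library. The counts are whole numbers and were treated as estimated counts already rounded by the authors, although the test had been planned for plain counts, and they were used as deposited. The FPKM values the authors deposited served only to compare levels between genes. RSEM and StringTie 1.3.1 are named, without their roles, per the submitters' processing notes. The strand setting, like the genome build and the annotation, is not given in the sources used here. Whether reads of overlapping antisense genes were told apart is therefore not known.

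Genes were named by Ensembl ID through a reference table, which matched 22219 of 22274 IDs. The members and all gene lists were chosen with earlier results of these data known. Genes passing filterByExpr (minimum count 10) were scaled by TMM and tested with edgeR 4.0.16 (glmQLFit and glmQLFTest, R 4.3.3), without covariates. P-values were adjusted over all tested genes by the Benjamini-Hochberg method (threshold 0.05), and CPM use the TMM-scaled library sizes. The SE is the log2 fold change divided by the square root of F. Sums of copies replaced the rows of the copies in further fits of the whole table. Totals ran from 15407007 to 18372964 counts per library, so a member's low counts limit its precision.

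The text names the members, every list by its counts with the 2 smallest p, and the 3 genes nearest in profile whose mean log2 CPM is 0 or more, leaving out Gm and Rik symbols. Other genes are named for a count of 5 or fewer, after their values were seen. Same-numbered libraries did not deviate together (correlations of -0.07, -0.08 and 0.07), so the numbers were not used as pairs. The procedure was tried on simulated counts with few changed genes, as many up as down. That setting lacks the wide changes and the odd control library of these data. Alternatives were DESeq2 1.42.0, RLE, total-count and pan-germ-cell scaling, no filter, a filter of CPM 1 or more in 3 or more libraries, a replicate block, and each library left out. Pan-germ-cell scaling without control library 1 was added after seeing the data.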

Additional observations from a re-analysis of the deposited data

How the results depend on the processing

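Since this contrast chose the members, the fits below describe how values move with the processing and lend the member differences no support. Under DESeq2, RLE and total-count scaling, both other filters and the replicate block, all 10 members stayed called lower. The family difference ran from -1.47 to -1.40 in these fits. With the block it was -1.40 and 2822 genes were called in all, against 3607 without it, and 1 neighbour was called lower, since Ct55 lost its call, as did Hprt, while Gm14685 gained one. RLE and total-count scaling called 3 neighbours lower; 2121 and 2424 genes were lower and 1458 and 1109 higher with these scalings, so that total-count scaling made 68.6% of calls lower, against 55.7% with TMM.

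Pan-germ-cell scaling changed the most: differences became 0.50 for Xlr3b, 0.12 for Xlr3c, 0.0215 for Xlr5b, 0.0200 for Xlr5c, 0.21 for the Xlr3 sum, -0.12 for the Xlr4 sum, -0.0056 for the Xlr5 sum and 0.0405 for the family. Among other genes Dtl turned to 1.15, Usp26 to 0.504, Mageb16 to 1.11, Hprt to 1.02 and Ct55 to 0.538. Then 0 members and 13417 genes in all (96 lower, 13321 higher) were called, since dividing by the germ cell markers raises nearly every other gene. Sycp3, 3 X-linked germ cell genes and 0 neighbours were called lower, while 1 X-linked germ cell gene and 13 neighbours were called higher. Without control library 1 as well, the values were 0.31 for Xlr3, -0.0518 for Xlr4, 0.13 for Xlr5 and 0.15 for the family.

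Leaving out each library in turn gave family values from -1.48 to -1.35, 9 to 10 members called, 1 to 3 neighbours lower and 1355 (without knockout library 2) to 5255 (without control library 1) genes called, of which 452 to 2392 were higher. Xlr3b lost its call without knockout library 2 (-1.08) and without control library 3 (-0.92), with smaller groups in each test. The counts of Xlr (17 to 124 per library) limit its precision most.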
